A study of Mus musculus with 4 samples.

Results

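The genes described here are 42 DNA replication and S-phase genes chosen by symbol for their role in copying the genome. All 42 were found in each of the 4 deposited gene tables, 1 line each, out of 23283 symbols with a value in every library, and all 42 passed the filter of a mean of at least 1 FPKM (fragments scaled to transcript length and library depth), as did 10973 symbols in all. RNA was sequenced from Th2 cells, CD4 helper T cells that make IL-4, IL-5 and IL-13, grown from spleen of C57BL/6 mice. The label of a library is wild type (WT) or knockout of Menin (KO). Menin, encoded by Men1, is a Trithorax group protein that works with histone methyltransferases. Cultures of the WT 5-day and KO 5-day groups held 15 ng/ml IL-2 plus 10 ng/ml IL-4 and lasted 5 days. The WT 3-week and KO 3-week groups had these 5 days, then 2 days with no added cytokine and 5 days of T cell receptor stimulation on coated antibody with IL-2 and a blocking antibody to IL-4. Those steps come to less than 3 weeks, and what filled the rest is not stated. Each group was a single library. The sources used here give neither the number of mice behind it nor the promoter or Cre behind the knockout. No difference below therefore has a replicate check or a p-value, and the intervals given cover counting error only.

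Menin RNA itself was lower in both KO libraries. Men1 (chromosome 19, 6334979 to 6340891, GRCm38) stood at 32.8 (WT) and 10.3 (KO) FPKM after 5 days and 25.4 (WT) and 5.88 (KO) FPKM in the longer culture. A part of the signal was thus still present in the cells labelled KO, at 31.5% of WT after 5 days and 23.1% in the longer culture. Of the T cell genes, Cd4 stood at 164 (WT) and 147 (KO) FPKM after 5 days and 212 (WT) and 307 (KO) FPKM in the longer culture, and Cd3e lay between 203 and 318 FPKM. The Th2 master regulator gene Gata3 was measured at 72.8 (WT) and 69.8 (KO) FPKM after 5 days and 93.8 (WT) and 45.9 (KO) FPKM in the longer culture. The Th2 cytokine gene Il13 stood at 1.62 (WT) and 3.68 (KO) FPKM after 5 days and 105 (WT) and 19.1 (KO) FPKM in the longer culture. T cell and Th2 genes were thus detected in all 4 libraries, with the 4 genes Gata3, Il4, Il5 and Il13 at least 2-fold lower in KO 3-week than in WT 3-week. Another of the 8 markers, Cd3g (389 and 1028 FPKM in WT and KO 3-week) was at least 2-fold higher there. Depth was read from whole-read steps in the low values and came to about 20700000, 22700000, 23600000 and 21600000 reads for WT 5-day, KO 5-day, WT 3-week and KO 3-week. At these depths the member with the fewest implied reads in a library still had 145 (KO 3-week).

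Replication starts at origins, where the origin recognition complex with Cdc6 and Cdt1 loads the MCM helicase in G1. Kinases then turn the helicase on by joining Cdc45 and the GINS complex to it, and primase, polymerases, the sliding clamp and its loader copy the opened strands. Most of these genes are switched on as cells enter S phase, and E2F factors are the best known regulators of that wave. Activated T cells divide fast, so a dividing culture carries much of this RNA. In bulk RNA, fewer cells in S phase and less of each RNA per cell cannot be told apart.

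All 42 genes had their lowest level in KO 3-week (42 of 42). The highest level lay in WT 5-day for 35 genes and in WT 3-week for 7. Summed over the 42, FPKM was 2828 (WT) and 2398 (KO) after 5 days and 2418 (WT) and 1229.7 (KO) in the longer culture. In that order this was 0.605%, 0.505%, 0.519% and 0.257% of all FPKM. The KO sum was thus 84.8% of WT after 5 days and 50.8% of WT in the longer culture. Levels per length differed widely between the genes. Pcna, the sliding clamp, was the highest in all 4 libraries and Rrm2, a ribonucleotide reductase subunit, was next. Orc1 was the lowest in all 4 and Pola1, the catalytic subunit of polymerase alpha, was next to lowest.

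**Figure D1:**
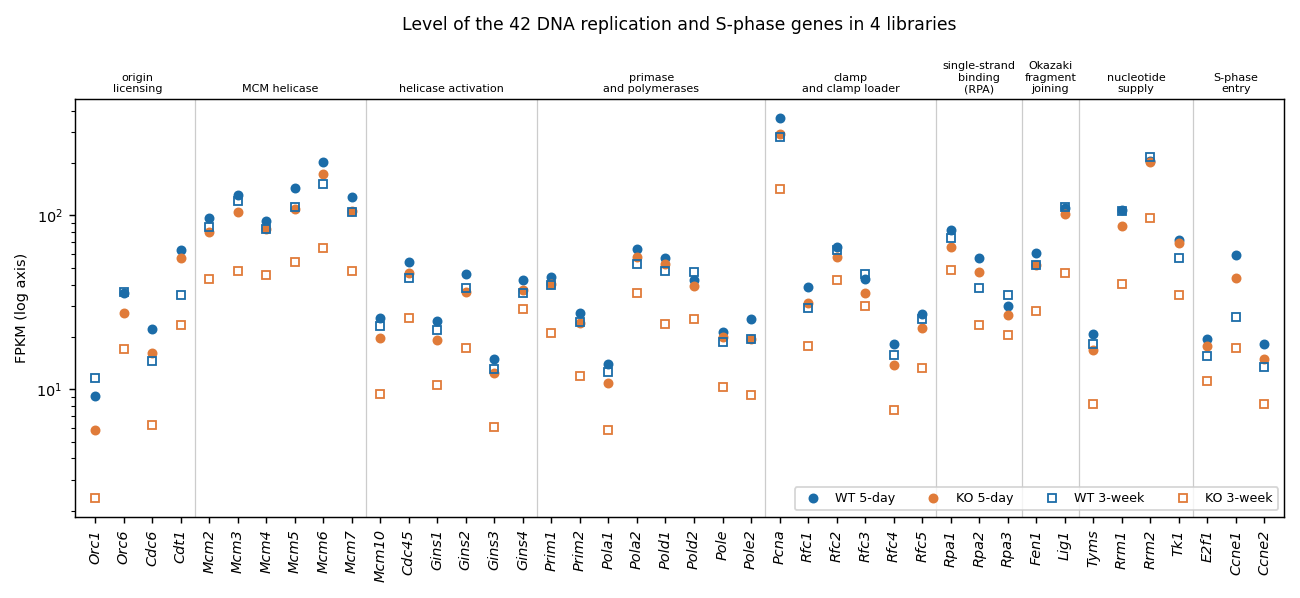
FPKM (log axis) of each of the 42 genes in the 4 libraries, grouped by role; filled circles are 5-day and open squares 3-week libraries, blue WT and orange KO, with 1 library per point and no error bar. The open orange square (KO 3-week) is the lowest point of every gene, and Pcna is the highest gene in each library.

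A part of these promoters hold an E2F-type sequence word. The genes were chosen by role and not by this word. E2F factors are the best known regulators of genes with that role, so the choice itself favours the word. RefSeq promoter sequence (GRCm38.p6, 250 bases before to 50 after a transcript start) was held for 34 of the 42. The E2F-type words TTTCCCGC, TTTCGCGC, TTTGCCGC and TTTGGCGC were searched on both strands. At least 1 of them was present in 13 of 34 genes (38.2%), against 2.6% of all 27025 genes in that table, which were not limited to genes expressed here. Of further replication genes outside the 42, 8 of 27 (29.6%) held such a word. Among genes often used as steady through the cell cycle it was 1 of 9 (11.1%). CCAAT, the NF-Y word, was present in 21 of 34 (61.8%) against 41.1%. TTTGAA, a word known from genes of G2 and mitosis, was present in 5 of 34 (14.7%) against 20.2%. Among a list of mitosis genes CCAAT was again the most frequent, in 16 of 21 promoters, while the order of the other words was reversed: 1 of 21 promoters held an E2F-type word and 14 of 21 held TTTGAA. A match is a description of the letters and was not tested as a binding site.

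The 8 genes with an E2F-type word upstream of the start are shown here as stretches of 60 bases, 5′ to 3′ on the strand of the gene, with the matched letters in capitals, because they place the shared word in helicase, licensing, clamp loader and polymerase genes alike.
Mcm5 (chr8:75109332-75109391, plus strand): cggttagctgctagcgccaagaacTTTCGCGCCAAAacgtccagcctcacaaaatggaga
Mcm6 (chr1:128359780-128359839, minus strand): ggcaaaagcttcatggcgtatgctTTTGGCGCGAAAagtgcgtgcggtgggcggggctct
Mcm7 (chr5:138172015-138172074, minus strand): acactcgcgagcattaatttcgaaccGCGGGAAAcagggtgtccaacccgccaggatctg
Orc1 (chr4:108579394-108579453, plus strand): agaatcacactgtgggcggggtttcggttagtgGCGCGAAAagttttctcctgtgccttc
Cdc6 (chr11:98907987-98908046, plus strand): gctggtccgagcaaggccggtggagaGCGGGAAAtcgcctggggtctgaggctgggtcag
Gins3 (chr8:95633492-95633551, plus strand): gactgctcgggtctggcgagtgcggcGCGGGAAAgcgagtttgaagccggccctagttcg
Rfc3 (chr5:151651209-151651268, minus strand): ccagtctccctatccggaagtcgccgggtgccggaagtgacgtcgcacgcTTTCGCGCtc
Pola1 (chrX:93632260-93632319, minus strand): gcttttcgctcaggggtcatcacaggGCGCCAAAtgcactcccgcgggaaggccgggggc
In Mcm5 and Mcm6 a TTTCGCGC and a TTTGGCGC on opposite strands overlap, so that 12 bases stand in capitals. In Orc1 a single word lies within 30 bases of the start, while in Cdc6 and Pola1 it lies over 100 bases upstream. Mcm3, Cdt1, Pold1, Pole2 and Lig1 hold their words after the start. All of these genes were lower in KO 3-week than in WT 3-week, from 20.6% of WT for Orc1 to 67.3% for Cdt1. So were all 42 members, with or without a word, and 55.8% of all compared genes. A link between the word and the level was not tested.

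**Figure D2:**
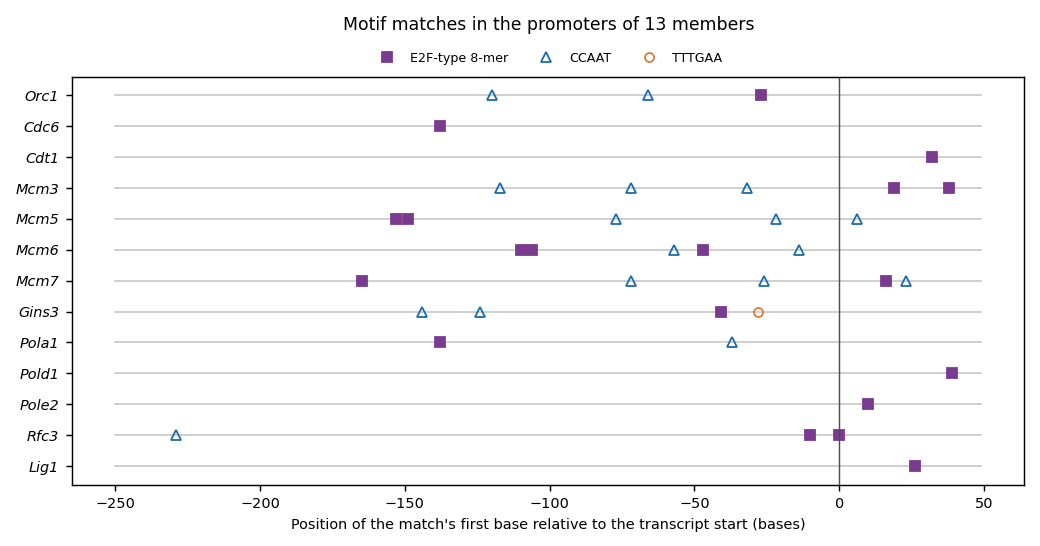
Position of motif matches in the promoters of the 13 genes with an E2F-type word; the x axis is the distance in bases of the first base of a match from the first transcribed base, which lies at 0. Filled squares are E2F-type words, triangles CCAAT and circles TTTGAA, on either strand, and the paired squares of Mcm5 and Mcm6 are the overlapping words.

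After 5 days, 42 of 42 genes had a lower level in KO than in WT, by a small margin, and so had 53.6% of all compared genes. The KO level ranged from 63.7% of WT (Orc1) to 98.6% (Rrm2), with a median of 83.3%. The counting interval lay wholly below 100% for 38 of 42 genes and held 100% for the other 4. Among 7407 genes with a mean of at least 5 FPKM and a known transcript length, 36.6% had such an interval below 100%. No gene was at least 2-fold lower and none at least 2-fold higher, where 0.82% and 2.77% of all 10973 compared genes were. Here and below, 2-fold means a log2((a + 1)/(b + 1)) of FPKM of at least 1 in size, which makes differences of low genes look smaller. The median log2 ratio of the 42 was -0.26, and that of all compared genes -0.02.

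In the longer culture the 42 genes stood further below WT, and 42 of 42 counting intervals lay below 100%, as did 51% of those 7407 genes. On the log2 scale 42 of 42 lay below 0, against 55.8% of all compared genes. The KO level ranged from 20.6% of WT (Orc1) to 80.6% (Gins4), with a median of 50.2%, and 20 of the 42 genes were under 50%. By the 2-fold rule 13 of 42 genes were at least 2-fold lower (31.0%) and 0 at least 2-fold higher. Over all compared genes 8.19% were lower and 7.97% higher by this rule, and among the genes with a mean of at least 5 FPKM, as all 42 have, 8.89% were lower. Of all genes past 2-fold, 49.3% were higher in KO, and 59.3% with upper-quartile scaling. Another 7 genes lay under 50% of WT by FPKM but short of 2-fold on the log2 scale, so the count of 13 depends on the pseudocount: it was 20 with 0.1 FPKM and 7 with 5 FPKM. It was also 7 with upper-quartile scaling, while 42 of 42 stayed below 0 under each setting tried. The median log2 ratio of the 42 was -0.96, and that of all compared genes -0.08. For 40 of 42 genes the counting interval of the KO level lay wholly below the interval at 5 days, against 37.4% of the 7407 genes. The exceptions were Gins4 and Ccne1. Over the 42 genes, the log2 ratios at the 2 times, which share no library, had a Pearson r of 0.42 and a Spearman rho of 0.37 across genes, which are not replicates. The Pearson r over all compared genes was 0.43.

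**Figure D3:**
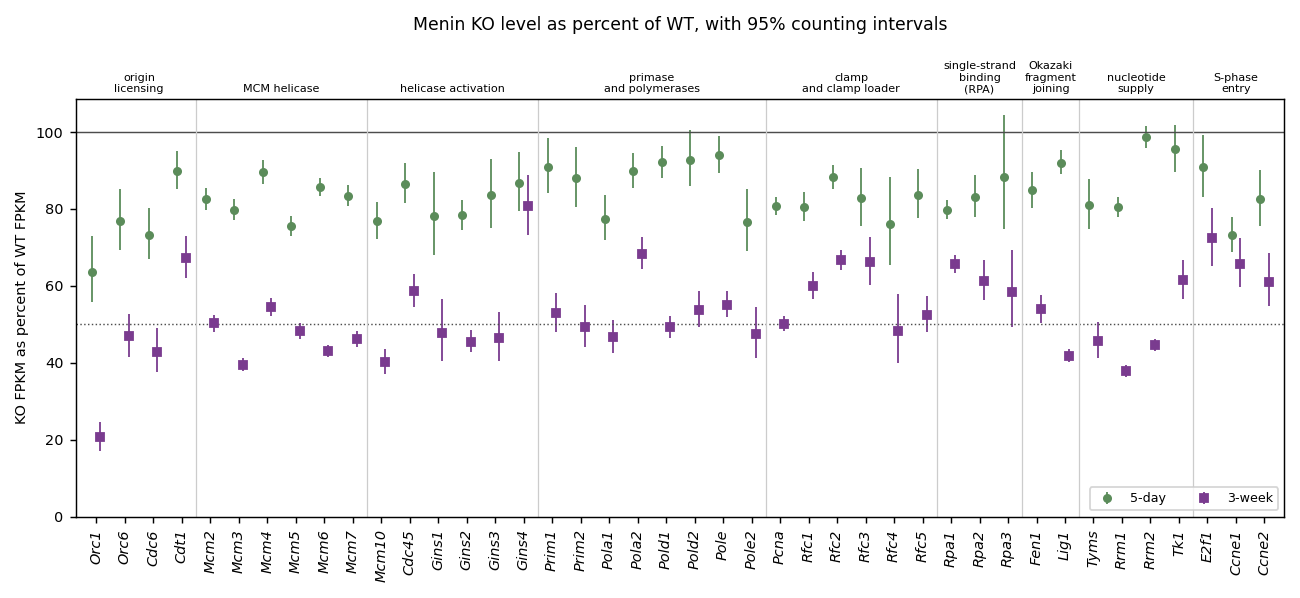
KO FPKM as a percentage of WT FPKM for each gene after 5 days (green circles) and in the longer culture (purple squares), with 95% counting intervals as bars and the dotted line at 50%. The 5-day points lie between 63.7% and 98.6% and the 3-week points between 20.6% and 80.6%, with Gins4 the highest and Orc1 the lowest square.

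Among the genes that license origins, Orc1 stood furthest apart between the genotypes. Orc1 (chromosome 4, 108579423 to 108614833, GRCm38) encodes the largest subunit of the origin recognition complex. It stood at 9.14 (WT) and 5.83 (KO) FPKM after 5 days and 11.5 (WT) and 2.38 (KO) FPKM in the longer culture. Both KO libraries lay below both WT libraries. The KO level was 63.7% of WT (55.8% to 73.03%) after 5 days and 20.6% of WT (17.2% to 24.7%) in the longer culture. Orc6, the smallest subunit, stood at 35.6 (WT) and 27.4 (KO) FPKM after 5 days and 36.2 (WT) and 16.97 (KO) FPKM in the longer culture, which puts KO 3-week at 46.9% of WT (41.6% to 52.8%). Cdc6, the ATPase that joins origin complexes to load MCM, stood at 22.1 (WT) and 16.2 (KO) FPKM after 5 days and 14.5 (WT) and 6.21 (KO) FPKM in the longer culture. It was lower in the longer culture in both genotypes, and KO 3-week stood at 42.9% of WT (37.6% to 48.97%). Cdt1, its partner in loading, stood at 63.4 (WT) and 57.03 (KO) FPKM after 5 days and 34.6 (WT) and 23.3 (KO) FPKM in the longer culture. Its culture difference in WT (54.6% of the 5-day level) was larger than its genotype difference in the longer culture (67.3% of WT).

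The 6 subunits of the MCM helicase, which form 1 ring with a copy of each, were lower together. Their KO level was 75.6% to 89.6% of WT after 5 days and 39.5% to 54.5% in the longer culture, and 4 of 6 (Mcm3, Mcm5, Mcm6 and Mcm7) were at least 2-fold lower there. Mcm6 was the highest subunit, at 203 (WT) and 174 (KO) FPKM after 5 days and 151 (WT) and 65.1 (KO) FPKM in the longer culture. Mcm3 (chromosome 1, 20802968 to 20820312, GRCm38) stood at 132 (WT) and 105 (KO) FPKM after 5 days and 120.4 (WT) and 47.5 (KO) FPKM in the longer culture. These values put Mcm3 in KO 3-week at 39.5% of WT (37.8% to 41.2%), the lowest of the ring, and its interval did not meet that of Mcm4, at 54.5% of WT (52.3% to 56.8%). Mcm2 and Mcm4 were the members of the ring short of 2-fold, with Mcm2 at 50.3% of WT (48.1% to 52.5%). Levels per length ran closer together in KO 3-week than in WT 5-day: the highest subunit was 2.19 times the lowest in WT 5-day, 2.17 times in KO 5-day, 1.81 times in WT 3-week and 1.51 times in KO 3-week. Mcm7 overlaps exons of Ap4m1 and Cops6 on the other strand and hosts Mir25 and Mir93 on its own, and the sources used here do not say whether the authors' counting used strand. In all, 13 of the 42 genes share exon bases with a gene on the other strand, among them Orc1, Gins2, Lig1 and Ccne2. On the same strand 3 do so: Mcm7, Rpa1 (with the miRNA gene Gm47300) and Pole2 (with the protein-coding gene Gm49384). Those overlaps remain whether or not counting used strand.

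The factors that activate the helicase did not all stand at the same ratio. Mcm10, which helps start the loaded helicase, stood at 25.8 (WT) and 19.8 (KO) FPKM after 5 days and 23.2 (WT) and 9.35 (KO) FPKM in the longer culture, and KO 3-week was 40.3% of WT (37.1% to 43.7%). Cdc45, which binds MCM and GINS to form the running helicase, stood at 54.1 (WT) and 46.8 (KO) FPKM after 5 days and 43.6 (WT) and 25.6 (KO) FPKM in the longer culture, and KO 3-week was 58.6% of WT (54.4% to 63.2%). GINS is a complex of 4 subunits. Gins1, Gins2 and Gins3 stood at 47.8%, 45.5% and 46.4% of WT in the longer culture. Gins4 (chromosome 8, 23226616 to 23237659, GRCm38) stood at 42.7 (WT) and 37.1 (KO) FPKM after 5 days and 35.8 (WT) and 28.9 (KO) FPKM in the longer culture. In the longer culture its KO level was 80.6% of WT (73.1% to 88.9%), above the intervals of the other GINS genes, the highest of which reached 56.6%. After 5 days the 4 GINS genes lay between 78.2% and 86.8% of WT with intervals that overlap.

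None of the primase and polymerase genes (0 of 8) was 2-fold lower in KO 3-week by the rule with the pseudocount, although most stood close to that mark. Pola1, Pole2, Pold1 and Prim2 lay under 50% of WT by FPKM and fell short of the rule only through the pseudocount. The 8 genes ranged from 46.6% to 68.3% of WT, against 76.7% to 94.04% after 5 days. Pola1 stood at 14.02 (WT) and 10.9 (KO) FPKM after 5 days and 12.6 (WT) and 5.87 (KO) FPKM in the longer culture and Pola2, the regulatory subunit of the same polymerase, at 63.8 (WT) and 57.3 (KO) FPKM after 5 days and 52.3 (WT) and 35.7 (KO) FPKM in the longer culture. In the longer culture Pola1 was at 46.6% of WT (42.5% to 51.1%) and Pola2 at 68.3% of WT (64.3% to 72.6%), so the subunits of 1 polymerase had intervals that did not meet. Prim1 and Prim2, which make the RNA primer, stood at 52.9% and 49.3%. The lagging-strand polymerase genes Pold1 and Pold2 stood at 49.2% and 53.8%, and the leading-strand polymerase genes Pole and Pole2 at 55.1% and 47.6%.

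The clamp gene Pcna (chromosome 2, 132249162 to 132253314, GRCm38) stood at 365 (WT) and 295 (KO) FPKM after 5 days and 283 (WT) and 142 (KO) FPKM in the longer culture. Its KO level was 80.8% of WT (78.5% to 83.2%) after 5 days and 50.2% of WT (48.3% to 52.1%) in the longer culture, the latter close to the median of the 42 genes. Its loader has 5 subunits, which spread over a wider range: Rfc4 and Rfc5 stood at 48.2% and 52.5% of WT in the longer culture, Rfc1 at 59.9%, and Rfc2 and Rfc3 at 66.7% and 66.1%. Rfc2 stood at 65.3 (WT) and 57.7 (KO) FPKM after 5 days and 63.4 (WT) and 42.3 (KO) FPKM in the longer culture and its interval (64.2% to 69.3%) lay above that of Rfc4 (39.97% to 57.9%). Rfc2, Rfc4 and Rfc5 share exon bases with a gene on the other strand. The single-strand binding proteins were among the genes with smaller differences. Rpa1, Rpa2 and Rpa3, the 3 subunits of RPA, stood at 65.7%, 61.3% and 58.5% of WT, and none was 2-fold lower.

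For the enzymes that finish Okazaki fragments, the flap nuclease Fen1 and the ligase Lig1, the ligase differed more. Lig1 stood at 110.2 (WT) and 101 (KO) FPKM after 5 days and 112 (WT) and 46.7 (KO) FPKM in the longer culture. The first 3 values lie close together, and KO 3-week was 41.9% of WT (40.2% to 43.7%). Fen1 stood at 60.9 (WT) and 51.6 (KO) FPKM after 5 days and 51.9 (WT) and 27.99 (KO) FPKM in the longer culture, with KO 3-week at 53.9% of WT (50.3% to 57.7%).

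Among genes of nucleotide supply, 3 of 4 were at least 2-fold lower in KO 3-week, and none after 5 days. Rrm2, the regulatory subunit of ribonucleotide reductase, stood at 206 (WT) and 203 (KO) FPKM after 5 days and 217 (WT) and 96.8 (KO) FPKM in the longer culture. Its KO level was 98.6% of WT (95.7% to 102%) after 5 days and 44.6% of WT (42.99% to 46.2%) in the longer culture. Rrm1, the catalytic subunit, stood at 108 (WT) and 86.6 (KO) FPKM after 5 days and 106 (WT) and 40.1 (KO) FPKM in the longer culture, and KO 3-week was 37.8% of WT (36.3% to 39.3%), second lowest of the 42 after Orc1. Tyms, the thymidylate synthase, stood at 20.9 (WT) and 16.9 (KO) FPKM after 5 days and 18.1 (WT) and 8.28 (KO) FPKM in the longer culture, with KO 3-week at 45.6% of WT (41.2% to 50.6%). A pseudogene symbol, Tyms-ps, is listed separately in the tables, so reads could be split between copies. Tk1, the S-phase thymidine kinase of the salvage route, stood at 72.4 (WT) and 69.2 (KO) FPKM after 5 days and 56.99 (WT) and 35.03 (KO) FPKM in the longer culture, with KO 3-week at 61.5% of WT (56.7% to 66.6%).

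The 3 regulators of S-phase entry were among the 11 genes above 60% of WT in KO 3-week. E2f1 stood at 19.4 (WT) and 17.7 (KO) FPKM after 5 days and 15.4 (WT) and 11.2 (KO) FPKM in the longer culture, and its KO level was 90.9% of WT (83.2% to 99.2%) after 5 days and 72.5% of WT (65.3% to 80.3%) in the longer culture. Ccne1 and Ccne2 encode the E cyclins, which drive CDK2 at the start of S phase. Ccne1 stood at 59.5 (WT) and 43.5 (KO) FPKM after 5 days and 26.1 (WT) and 17.2 (KO) FPKM in the longer culture. The 5-day libraries of both genotypes lay above both 3-week libraries. Its KO level was 73.2% of WT (68.7% to 77.9%) after 5 days and 65.8% of WT (59.7% to 72.4%) in the longer culture. Ccne2 stood at 18.2 (WT) and 14.995 (KO) FPKM after 5 days and 13.4 (WT) and 8.19 (KO) FPKM in the longer culture, with KO 3-week at 61.1% of WT (54.7% to 68.4%). None of these 3 genes was 2-fold lower in KO at either time.

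Between the cultures, the levels in WT differed less than those in KO. In WT the 3-week level ranged from 43.96% (Ccne1) to 126% (Orc1) of the 5-day level, with a median of 87.1%. By the 2-fold rule 1 of 42 genes was lower in WT, Ccne1, and 0 were higher, against 2.83% lower and 3.03% higher of all compared genes. In KO the range was 37.5% (Mcm6) to 84.3% (Rfc3), with a median of 50.9%. There 14 of 42 genes were 2-fold lower and 0 higher, against 4.39% and 4.35%. The count of 14 was 9 with a pseudocount of 5 FPKM, 9 with either other scaling and 20 with a pseudocount of 0.1 FPKM. The culture contrasts differ in restimulation and cytokines as well as in time. They also share libraries with the genotype contrasts, so they are the same 4 values read the other way.

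**Figure D4:**
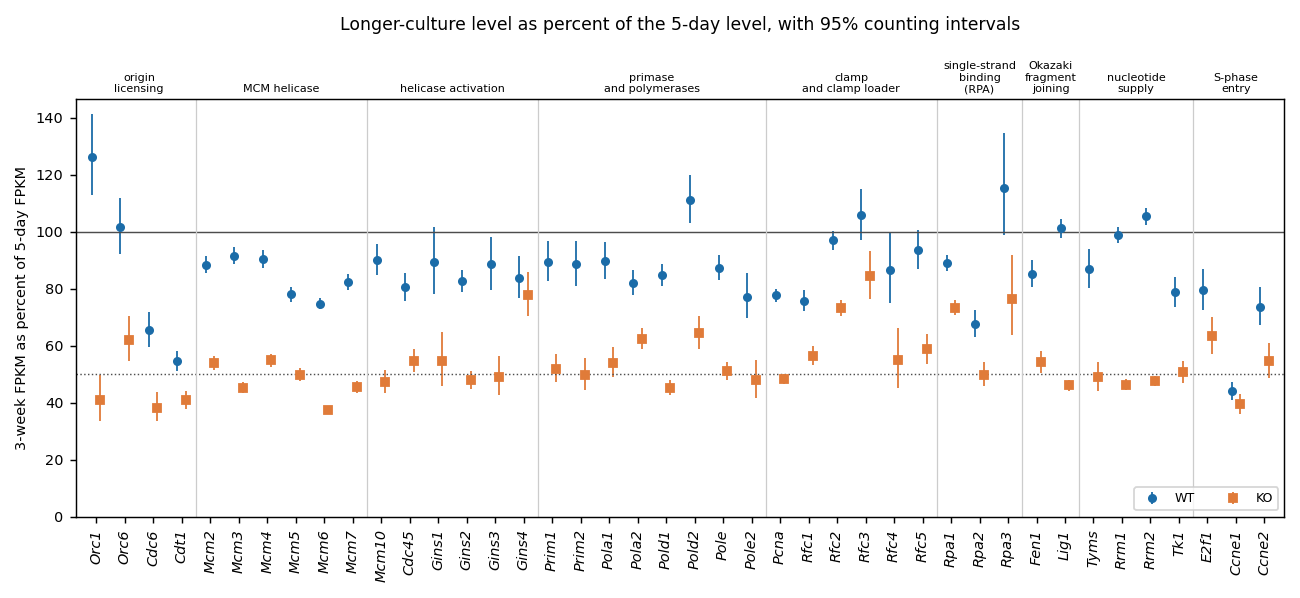
FPKM of the longer culture as a percentage of the 5-day FPKM for each gene in WT (blue circles) and KO (orange squares), with 95% counting intervals as bars and the dotted line at 50%. WT points lie between 43.96% and 126% and KO points between 37.5% and 84.3%, and the points of Gins4 and Ccne1 lie closest together.

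The KO against WT log2 ratio was lower at 3 weeks than at 5 days for 42 of 42 genes and for 57.4% of all compared genes. The median difference was -0.67 against -0.08 over all compared genes. The difference was at least 1 on the log2 scale for 5 genes, where 4.7% of all compared genes were that much lower. These were Orc1 (-1.32), Rrm2 (-1.14), Lig1 (-1.12), Rrm1 (-1.07) and Mcm3 (-1.001). The smallest were Gins4 (-0.10) and Ccne1 (-0.14). With 1 library per group this difference was not tested.

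Other genes of the same processes were counted from lists of known function. These lists overlap: Mms22l is counted under both replication and chromatin assembly. Rbbp4 is counted under both chromatin assembly and the E2F, DP, pocket protein and partner genes. Over all compared genes, 8.19% were 2-fold lower and 7.97% higher in KO 3-week, and 0.82% and 2.77% after 5 days. Of 33 further replication genes found in the tables, 8 were 2-fold lower and 0 higher in KO 3-week (median -0.66), and 0 in either direction after 5 days (median -0.23). The count at 3 weeks was 4 with upper-quartile scaling. The lowest were the nuclease genes Dna2 (9.47 and 2.81 FPKM in WT and KO 3-week) and Exo1 (6.37 and 2.23 FPKM) and the topoisomerase gene Top2a (172 and 76.9 FPKM). At the other end stood Pold4, the smallest subunit of polymerase delta, which was higher in KO (44.8 and 80.2 FPKM), then Donson (14.6 and 13.4 FPKM) and Rnaseh1 (15.2 and 12.2 FPKM). Of 24 further genes of nucleotide supply, 12 were 2-fold lower and 0 higher at 3 weeks (median -1.05). Shmt1 (20.8 and 4.07 FPKM), Ppat (21.8 and 4.8 FPKM) and Atic (70.1 and 17.2 FPKM), enzymes of one-carbon and purine synthesis, were the lowest. Tk2 (9.82 and 18.7 FPKM), the mitochondrial thymidine kinase, Samhd1 (70.4 and 109 FPKM), which breaks down deoxynucleotides, and Impdh1 (42.4 and 56.6 FPKM) were higher in KO. Of 15 genes that assemble chromatin on new DNA, 4 were 2-fold lower and 0 higher (median -0.81), the lowest being Rbbp7 (137 and 41.2 FPKM), Uhrf1 (78.5 and 29.7 FPKM) and Hells (46.3 and 17.9 FPKM), and the highest Tonsl (13.4 and 13.5 FPKM), Mms22l (11.9 and 7.89 FPKM) and Chaf1b (28.2 and 19.03 FPKM).

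Regulators upstream of S phase differed from list to list. The log2 ratio at 3 weeks lay below 0 for 16 of 17 E2F, DP, pocket protein and partner genes (14 with upper-quartile scaling). It lay below 0 for 8 of 11 compared G1 and S kinases, cyclins and Myc genes and for 2 of 7 CDK inhibitor genes. Over all compared genes 55.8% lay below 0, and 8.19% were 2-fold lower and 7.97% higher. Of 17 E2F, DP, pocket protein and partner genes, 1 was 2-fold lower in KO 3-week and 0 higher (median -0.53). This was Tfdp1 (132 and 48.3 FPKM), which encodes a DP partner of the E2F factors. E2f8 (26.003 and 12.8 FPKM) and E2f7 (8.1 and 4.37 FPKM), which are among the repressive members, followed. Lin37 (19.97 and 26.3 FPKM), Rbl1 (23.3 and 21.9 FPKM) and Tfdp2 (5.59 and 4.6 FPKM) were highest. Of 11 compared G1 and S kinases, cyclins and Myc genes, 3 were lower and 1 higher, the latter Mycn (0.0705 and 3.47 FPKM), named after its values were seen. Myc, a growth regulator of activated T cells, stood at 38.4 (WT) and 20.3 (KO) FPKM after 5 days and 75.8 (WT) and 14.7 (KO) FPKM in the longer culture. The phosphatase gene Cdc25a (19.7 and 6.19 FPKM) and Cks1b (117 and 55.1 FPKM) were the other lower genes. The D cyclin genes Ccnd2 (105 and 116 FPKM) and Ccnd3 (135 and 144 FPKM) and the kinase gene Cdk6 (40.2 and 27.2 FPKM) were highest. Of 7 CDK inhibitor genes 0 were 2-fold lower and 1 was higher in KO 3-week, Cdkn2b, at 1.29 (WT) and 2.91 (KO) FPKM after 5 days and 2.52 (WT) and 20.7 (KO) FPKM in the longer culture. Cdkn1b (25.2 and 45.95 FPKM) and Cdkn2d (49.1 and 54.01 FPKM) came next, and Cdkn1a (135 and 127 FPKM), Cdkn2a (49.9 and 49.7 FPKM) and Cdkn2c (16.6 and 17.6 FPKM) were lowest. With upper-quartile scaling all 7 inhibitor genes lay above 0, against 5 of 7 as deposited.

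Genes of mitosis and genes used as steady references were set beside the 42. By the 2-fold rule 8.19% of all compared genes were lower and 7.97% higher in KO 3-week, and 55.8% lay below 0. Of 25 mitosis genes 4 were 2-fold lower and 0 higher in KO 3-week (median -0.76), and after 5 days their median was -0.10. Ccnb1 (53.4 and 20.8 FPKM), Mybl2 (22.1 and 9.35 FPKM) and Aurkb (65.96 and 29.2 FPKM) were lowest, and Prc1 (57.2 and 64.8 FPKM), Pttg1 (40.5 and 37.1 FPKM) and Kif23 (31.2 and 22.7 FPKM) highest. Of 12 genes often used as steady through the cell cycle 1 was 2-fold lower and 0 higher, but 10 of 12 lay below 0 (9 with upper-quartile scaling) and their median was -0.46. Hprt (119 and 50.6 FPKM), Ppia (998 and 557 FPKM) and Sdha (88.8 and 55.2 FPKM) were lowest, and B2m (4741 and 6709 FPKM) and Rplp0 (1410.3 and 1304 FPKM) were among the highest. After 5 days the median of this list was -0.17, against -0.26 for the 42 genes.

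**Figure D5:**
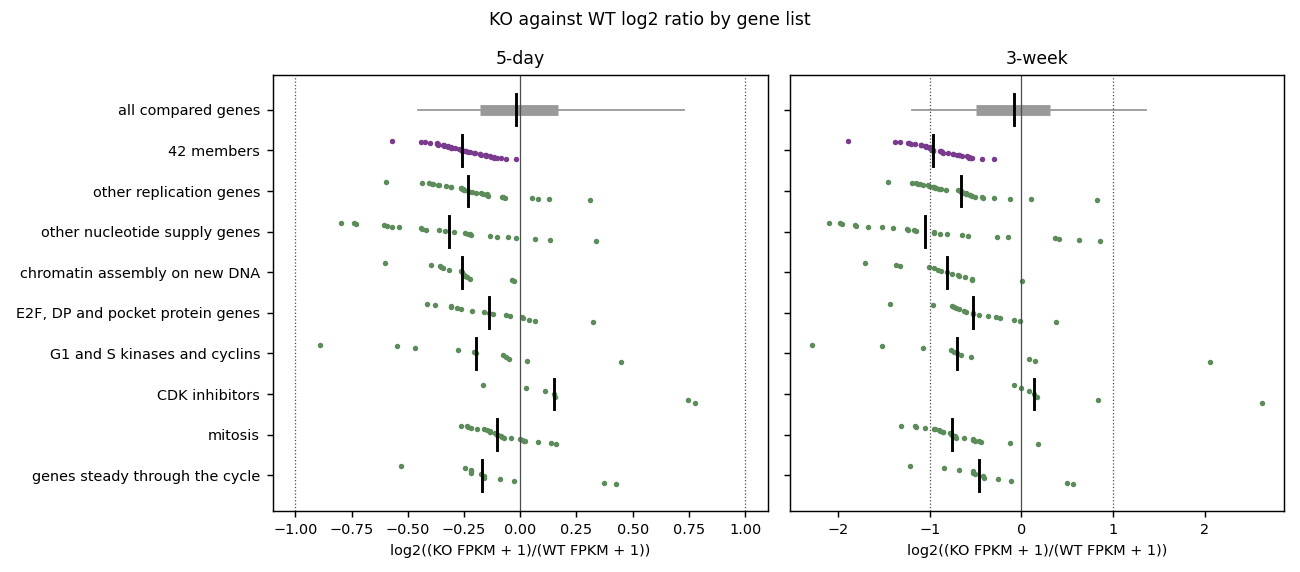
KO against WT log2((FPKM + 1) ratio) of each compared gene by list, after 5 days (left) and in the longer culture (right); points are genes, black bars medians, the grey bar spans the middle 50% and the thin line the middle 90% of all 10973 compared genes, and dotted lines mark 2-fold. The 42 members (purple) lie wholly below 0 in both panels, with medians of -0.26 and -0.96.

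Markers of other cells were low but not flat between the genotypes. Both CD8 markers were detected, with a summed FPKM of 4.38, 5.7, 2.04, 3.77 in the order WT 5-day, KO 5-day, WT 3-week and KO 3-week. In the same order the 4 NK cell markers summed to 0.569, 4.92, 0.105, 8.23 and the 5 myeloid markers to 0.768, 2.89, 0.294, 7.15. The B cell marker gene Cd79b stood at 1.35 (WT) and 1.68 (KO) FPKM after 5 days and 0.0424 (WT) and 0.278 (KO) FPKM in the longer culture, and Pax5, another, was listed at 0 in all 4 libraries. In WT 3-week, 0 was also listed for Cd8a. In WT 5-day and WT 3-week, 0 was also listed for Ncr1. In WT 5-day, KO 5-day and WT 3-week, 0 was also listed for Klra8. In KO 3-week, 0 was also listed for Cd79a and Lyz2. In WT 5-day, WT 3-week and KO 3-week, 0 was also listed for Ms4a1. In WT 3-week and KO 3-week, 0 was also listed for Csf1r. In WT 5-day, 0 was also listed for Cd14. Of the 4 NK and 5 myeloid markers, 1 each reached a mean of 1 FPKM. The log2 ratio of KO against WT was 1.52 after 5 days and 2.71 in the longer culture for that NK marker. For the myeloid one it was 0.21 and 2.48. The CD8, NK and myeloid sums and Cd79b were higher in KO than in WT at both times, beside the lower replication genes. Their part in the result was not tested.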

How the data were processed

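RNA of 4 libraries, 1 per group, was extracted with TRIzol, and libraries came from a kit that marks strand, per the labels' protocols. The submitters' processing notes name Bowtie 0.12.8, TopHat 1.3.2 and Cufflinks 2.0.2 and the build mm10. The sources used here do not give the annotation or whether counting used strand. The authors deposited 1 value per gene line, read here as FPKM from Cufflinks. That unit was inferred from the named tool and the values, as the deposited tables name none. Each table has 23746 lines. Lines of 1 symbol were summed, and 1 symbol with an error mark was left out. Ratios are log2 of FPKM plus 1, over genes with a mean of at least 1 FPKM. With 1 library per group no test was run.

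Depth was inferred from whole-read steps in low values: 61.3% to 63.6% of the tested values per library lay within 0.05 of a whole read, against 10% if evenly spread. Reads implied by this depth and the principal transcript length in GENCODE M21 gave exact Clopper-Pearson 95% intervals, which cover counting error only. These reads are approximate, so no count test was run on them. Promoter sequence came from RefSeq. The scripts were checked on simulated data. Alternatives were the pseudocount, the filter, 2 scalings, the largest line per symbol and fewer E2F-type words. The members and all gene lists were chosen with earlier results of these data known. From each further list the text names the 3 highest and 3 lowest log2 ratios at 3 weeks among genes with at least 5 FPKM. One steady gene that the rule names and one B cell marker are not reported here. Python 3.11.15, numpy 2.4.6, pandas 2.3.3, scipy 1.17.1 and matplotlib 3.10.9 were used.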

Additional observations from a re-analysis of the deposited data

Results flagged for a closer look

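In these genes the longer culture was higher than the 5-day culture in WT and lower in KO, on the log2 scale, and each group is 1 library. For Orc1 the culture log2 ratio was 0.31 in WT and -1.01 in KO, a difference of -1.32. For Pold2 it was 0.15 and -0.61, a difference of -0.76, and for Rpa3 0.20 and -0.37, a difference of -0.57. Among genes outside the 42, the nuclease gene Dna2 had 0.12 in WT and -1.08 in KO (difference -1.20) and Cdc25a 0.19 and -0.87 (difference -1.06). Myc had 0.96 and -0.43 (difference -1.40). The one-carbon and purine synthesis genes Shmt1, Ppat and Atic had 0.78, 0.56 and 0.33 in WT and -0.53, -0.67 and -0.90 in KO, with differences of -1.31, -1.24 and -1.23. Sdha, from the list of steady genes, had 0.18 and -0.28 (difference -0.46). Genotype ratios were compared for the 42 genes and those named by rule from the further lists, cell type markers aside. Where both ratios were at least 0.1 in size, Pttg1 was the one gene that changed sign. It stood at 0.16 after 5 days and -0.12 in the longer culture (difference -0.28). With a smaller ratio at 1 time, Ccnd3 (-0.55 and 0.09), Samhd1 (-0.05 and 0.63) and Cdkn1a (0.11 and -0.08) also changed sign. Their counting intervals excluded equal levels at both times. Rnaseh1, Tonsl, Cdkn2a and Cdkn2c changed sign too, with intervals that held equal levels at 1 time or both. The flags took only ratios of at least 0.1 in size, and none of these differences was tested. Counting intervals of KO Pttg1 were 95.4% to 131% of WT after 5 days and 80.3% to 105% in the longer culture. Both held equal levels, so the change of sign lay within counting error. For Rpa3 and Dna2 the WT intervals of the longer against the 5-day culture, 99.01% to 134.8% and 99.4% to 121.5%, also held equal levels.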

How the results depend on the processing

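Under every setting tried, 42 of 42 genes stayed below 0 for KO against WT at both times and for the longer against the 5-day culture in KO, and no median reversed. Counts past 2-fold did move. For KO against WT at 3 weeks the count of 13 lower genes was 20 with a pseudocount of 0.1 FPKM, 7 with 5 FPKM and 7 with upper-quartile scaling. For the culture contrast in KO the count of 14 was 9 with a pseudocount of 5 FPKM, 9 with median-of-ratios scaling, 9 with upper-quartile scaling and 20 with a pseudocount of 0.1 FPKM. With a pseudocount of 5 FPKM the median log2 ratio was -0.78 instead of -0.96 for KO against WT at 3 weeks, and -0.77 instead of -0.92 for the culture contrast in KO. A larger pseudocount shrinks every ratio by construction. The cause of the shifts with scaling was not tested. No paired analysis was possible because each group holds 1 library, and for the same reason no library could be left out. Depth limits the members with few implied reads, the lowest of which was Orc1 in KO 3-week with 145.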
